A study of Mus musculus with 4 samples.

Results

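The ATP-binding cassette (ABC) transporters examined here were 10 genes of the drug and lipid efflux pumps, namely Abcb1a, Abcb1b, Abcg2, Abcc1, Abcc2, Abcc3, Abcc4, Abcc5, Abca1 and Abcg1. They were taken by symbol from a table of 24421 genes, and all 10 had a row there. The cells were 4T07, an established murine line of breast carcinoma with the strain given as Balb/cfC3H. According to the labels, 2 libraries were made from 4T07 cells overexpressing Six2, a homeobox transcription factor gene, and 2 from control 4T07 cells of the same line. Both kinds of cells were grown in high-glucose DMEM with calf serum and lysed 48 hours after plating, and polyadenylated RNA was sequenced. The promoter and vector of the introduced Six2, and whether either population was 1 clone, were not given in the sources used here. The comparison asked how transcripts of the transporters differed between the Six2-labelled cells and the control cells.

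ABC transporters use ATP to move substrates across membranes. P-glycoprotein, which mice encode in the paralogs Abcb1a and Abcb1b, expels bulky hydrophobic drugs from the cell, and the breast cancer resistance protein encoded by Abcg2 does so for an overlapping set and secretes substrates into milk in the lactating mammary gland. The multidrug resistance proteins of the Abcc genes export organic anions, among them glutathione, glucuronide and sulfate conjugates and cyclic nucleotides, whereas Abca1 and Abcg1 pass cellular cholesterol to lipoproteins.

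Promoter sequences are shown for the genes whose values are described at greatest length, because the values set Abcg2 and Abcb1a apart from Abcb1b and from the cholesterol exporter. RefSeq windows of GRCm38.p6, each running from 250 bases before to 50 bases after an annotated start, matched 7 of the 10 genes with 10 windows. Abcc1, Abcc3 and Abcg1 had no matching window. Capitals mark matches, on either strand, to 4 motifs. The GC box was searched as GGGCGG and was found in 35.7% of all 32851 windows. The CCAAT box, searched by the letters of its name, was found in 37.4%. The TATA box was searched as TATAAA and was found in 13.6%. A relaxed DR4 repeat of the kind bound by the sterol-sensing liver X receptor was found in 0.207%. The 4 windows lie at chr6:58640296-58640595 (plus strand, the third of 3 starts of Abcg2), chr5:8566841-8567140 (plus strand, Abcb1a), chr5:8797897-8798196 (plus strand, Abcb1b) and chr4:53159846-53160145 (minus strand, Abca1).
Abcg2: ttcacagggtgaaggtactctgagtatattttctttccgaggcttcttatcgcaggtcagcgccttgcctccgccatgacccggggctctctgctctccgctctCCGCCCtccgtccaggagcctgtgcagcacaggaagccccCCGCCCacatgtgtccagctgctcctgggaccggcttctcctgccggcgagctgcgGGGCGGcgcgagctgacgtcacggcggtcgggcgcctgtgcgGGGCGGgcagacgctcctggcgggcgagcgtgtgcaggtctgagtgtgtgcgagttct
Abcb1a: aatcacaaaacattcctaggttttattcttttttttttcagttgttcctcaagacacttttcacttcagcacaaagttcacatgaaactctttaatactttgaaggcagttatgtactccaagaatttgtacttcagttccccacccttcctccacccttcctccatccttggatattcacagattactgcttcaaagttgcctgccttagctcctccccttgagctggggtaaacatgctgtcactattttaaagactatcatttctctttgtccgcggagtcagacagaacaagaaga
Abcb1b: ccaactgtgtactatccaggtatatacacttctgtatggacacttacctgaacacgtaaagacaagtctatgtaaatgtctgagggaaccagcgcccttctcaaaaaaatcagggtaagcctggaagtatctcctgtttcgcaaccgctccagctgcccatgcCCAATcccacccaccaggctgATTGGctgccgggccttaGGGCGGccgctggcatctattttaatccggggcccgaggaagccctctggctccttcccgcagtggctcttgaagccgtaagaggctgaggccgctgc
Abca1: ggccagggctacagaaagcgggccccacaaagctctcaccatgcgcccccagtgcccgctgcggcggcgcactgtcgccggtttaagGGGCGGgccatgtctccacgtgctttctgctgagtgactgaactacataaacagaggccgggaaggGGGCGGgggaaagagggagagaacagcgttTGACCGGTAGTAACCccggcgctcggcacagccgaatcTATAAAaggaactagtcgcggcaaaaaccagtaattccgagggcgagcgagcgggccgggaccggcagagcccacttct
The windows of Abcb1a and Abcb1b differed in composition, with 2 CpG dinucleotides and none of the 4 motifs in Abcb1a, and 12 CpG dinucleotides, a GC box and a pair of CCAAT boxes in opposite orientation in Abcb1b. The start used for the Abcb1a window lies at 8567091, upstream of the GENCODE gene start at 8660077. The Abcb1b window was placed at its GENCODE gene start, 8798147, so the 2 windows are at unlike kinds of start. No window at the GENCODE gene start of Abcb1a was examined. The Abca1 window held the receptor-type repeat, with its first base 67 bases upstream of the start, and a TATA box 29 bases upstream. The Abcg2 window shown, picked after its letters were read because it held the most CpG dinucleotides of the 3, had 28 of them and 4 GC boxes. The windows at the other Abcg2 starts, not shown, held 3 and 10 CpG dinucleotides. Each had a TATA box downstream of its start, and the second also had a CCAAT box and 2 GC boxes. Which start these cells used was not measured. The MEF3 motif, bound by the family of Six2, (TCAGGTTTC, either strand) was found in 0.429% of all windows and in 0 of the 10 windows of these genes. A match is a description of letters, and its absence says only that the letters are not in the window.

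Read totals recovered from the RPKM values (reads scaled to the length of the gene and the depth of its library) were 49910629 and 81524250 in the Six2-labelled libraries and 43110985 and 41881864 in the control libraries. One read on a gene of 1 kb was therefore worth between 0.0123 and 0.0239 RPKM. Six2 itself had 3 and 0 reads in the Six2-labelled libraries and 0 in both control libraries, which leaves the labelled overexpression without a trace in these values; directions below refer to the label alone. The luminal keratins Krt8 (607 to 972 RPKM in Six2-labelled and 742 to 1059 RPKM in control cells) and Krt18 were abundant epithelial markers. Epcam stayed at or under 0.720 RPKM in all 4 libraries, and Cdh1, which encodes E-cadherin, had 0.186 and 0.103 RPKM in Six2-labelled cells, against 14.6 and 8.40 RPKM in control cells. The labels do not say whether replicates were separate cultures, so p-values set the group difference against a spread that may be technical. In bulk RNA, fewer cells of a kind and less RNA per cell cannot be told apart.

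Most of the detected transporters lay lower in Six2-labelled cells with all libraries apart, led by Abcg2, and Abca1 lay higher. Of the 10 genes, Abcg2, Abcb1a, Abcc1, Abcc4 and Abcc5 and the faint Abcc3 were the lower ones, Abcb1b and Abcg1 overlapped between groups, and Abcc2 was listed at 0 throughout. Among all 10654 genes tested, the groups did not overlap for 47.4%, of which 25.5 percentage points were lower and 21.9 higher. The test was restricted to genes that reached 1 RPKM in 2 or more libraries. Of the 10 transporters 7 did so, and Abcg2 only through the control libraries, so that a difference was built into its being tested. With limma-trend on log2(RPKM + 1), 0 of these 7 passed at an adjusted p under 0.05, where 0.113% of all genes tested were called (0.0282% higher and 0.0845% lower). Voom on recovered reads called 0 of all 10650 genes it tested, so its 0 of the 7 is no result about the transporters. At an unadjusted p under 0.05, 4 of the 7 were lower and 0 higher, where 9.66% of all genes tested were lower and 7.36% higher. The median log2 difference of the 7 was -0.48, beside -0.01 for all genes tested. Abcg2, whose lower value was built into its being tested, is counted among the 4 and in this median.

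**Figure D1:**
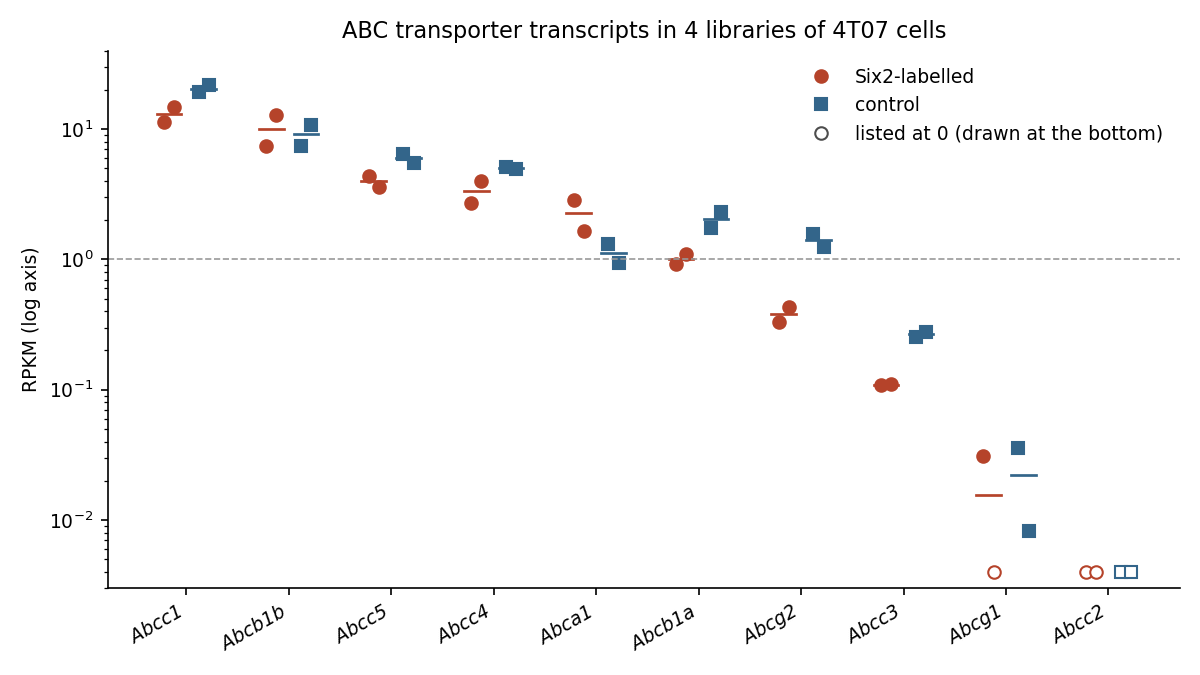
Levels of the 10 transporter transcripts in RPKM on a log axis, with Six2-labelled libraries as red circles left of the control libraries as blue squares. Short lines are group means, open symbols are values listed at 0 drawn at the bottom, and the dashed line is the 1 RPKM filter. Abcc1 had the highest mean in both groups, and Abcg2, Abcb1a, Abcc1, Abcc3, Abcc4 and Abcc5 were lower in both Six2-labelled libraries.

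Abcg2, the breast cancer resistance protein gene (ENSMUSG00000029802.13, GRCm38 chromosome 6, 58584523 to 58695676, plus strand), had 0.330 and 0.433 RPKM in Six2-labelled replicates 1 and 2, against 1.56 and 1.25 RPKM in control replicates 1 and 2. Both Six2-labelled values lay below both control values. These rest on 41 and 88 reads in Six2-labelled cells and 168 and 130 reads in control cells. The exact Poisson 95% intervals, which cover counting error only, ran from 0.237 to 0.447 and from 0.348 to 0.534 RPKM in Six2-labelled cells. In control cells they ran from 1.34 to 1.82 and from 1.04 to 1.48 RPKM, so the groups were also apart by counting error. Means were 0.382 ± 0.0732 RPKM in Six2-labelled cells and 1.41 ± 0.225 RPKM in control cells (SD, n = 2 each), a 3.68-fold lower level. The log2(RPKM + 1) difference, which understates the change of a gene this low, was -0.80 (SE 0.147, 95% interval -1.19 to -0.40). It missed the threshold (limma-trend adjusted p = 0.142). The difference was -1.64 with a pseudocount of 0.1 and -1.85 with voom on recovered reads, with limma adjusted p-values of 0.138 and 0.114.

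Of the P-glycoprotein paralogs, Abcb1a lay lower in Six2-labelled cells and Abcb1b overlapped. Abcb1a (ENSMUSG00000040584.8, chromosome 5, 8660077 to 8748575, plus strand), the form prominent at the mouse blood-brain barrier, had 0.922 and 1.10 RPKM in Six2-labelled cells, against 1.73 and 2.33 RPKM in control cells. All 4 libraries lay apart by group. The means were 1.01 ± 0.125 RPKM in Six2-labelled cells and 2.03 ± 0.423 RPKM in control cells (SD, n = 2 each), a 2.01-fold lower level. On the log2 scale Abcb1a differed by -0.59 (SE 0.159, 95% interval -1.01 to -0.16, limma-trend adjusted p = 0.203). That became -0.93 with a pseudocount of 0.1 and -0.97 with voom, and neither passed.

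Abcb1b (ENSMUSG00000028970.9, chromosome 5, 8798147 to 8866315, plus strand), the form prominent in mouse adrenal and pregnant uterus, had 7.41 and 12.8 RPKM in Six2-labelled cells, against 7.46 and 10.8 RPKM in control cells. The groups overlapped, and replicate 2 was the higher library in each. The log2 difference of Abcb1b was 0.11 (SE 0.306, 95% interval -0.71 to 0.93, limma-trend adjusted p = 0.897). Its sign turned when a library was left out, to -0.25 without Six2 replicate 2 and -0.13 without CTL replicate 1.

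Within each library Abcb1b was the more abundant paralog per length, 8.04 and 11.6 times the Abcb1a value in Six2-labelled cells, against 4.32 and 4.64 times in control cells. The ratio was higher in both Six2-labelled libraries. On the log2 scale this ratio differed by 1.11, with an exact two-sided permutation p of 0.333, the smallest that 2 libraries against 2 allow. The summed RPKM of both paralogs was 8.33 and 13.9 in Six2-labelled cells and 9.19 and 13.1 in control cells, so the sums overlapped. The genes are near copies of each other. In GENCODE, 15.5% of the 50-base windows of the longest coding transcript of Abcb1a also occur in that of Abcb1b, and 18.0% the other way. The authors' treatment of reads that fit both genes is not given in the sources used here. The split between them is therefore uncertain.

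**Figure D2:**
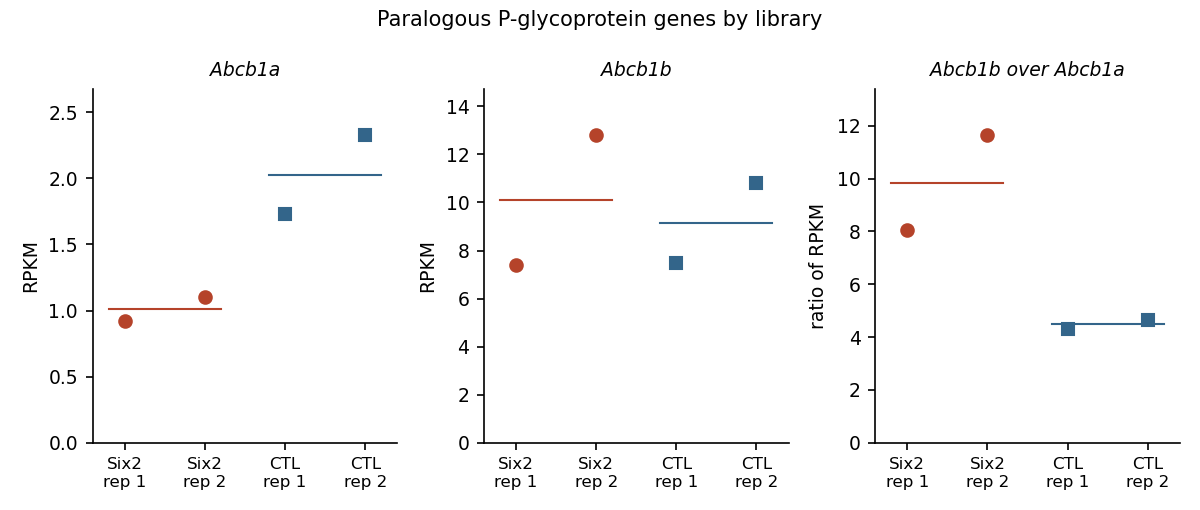
RPKM of Abcb1a and Abcb1b and the ratio of Abcb1b to Abcb1a in each library, on linear axes from 0, with Six2-labelled libraries (red circles) left of control libraries (blue squares) and lines at group means. Abcb1a and the ratio are apart by group, with ratios of 8.04 and 11.6 in Six2-labelled cells and 4.32 and 4.64 in control cells, whereas Abcb1b overlaps.

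Transcripts of Abcc1, Abcc4 and Abcc5, which encode multidrug resistance proteins, had lower values in both Six2-labelled libraries. Of the 3, 0 passed with limma-trend, where 0.113% of all genes tested were called. At an unadjusted p under 0.05, 2 were lower, where 9.66% of all genes tested were lower. With voom the same 2 were lower at that threshold, but its share over all genes is not given here. Abcc1 (ENSMUSG00000023088.17, chromosome 16, 14361558 to 14475737, plus strand), which exports leukotriene C4 and glutathione conjugates, had 11.4 and 14.7 RPKM in Six2-labelled cells, against 19.2 and 21.7 RPKM in control cells. It was the most abundant of the 10 genes by mean in both groups, at 13.0 ± 2.33 RPKM in Six2-labelled cells and 20.5 ± 1.79 RPKM in control cells (SD, n = 2 each). In Six2-labelled cells its libraries overlapped those of Abcb1b, the next in order, and in control cells they did not. Abcc1 differed by -0.62 on the log2 scale (SE 0.158, 95% interval -1.05 to -0.20, limma-trend adjusted p = 0.190).

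Abcc4 (ENSMUSG00000032849.14, chromosome 14, 118482692 to 118706219, minus strand), an exporter of cyclic nucleotides and prostaglandins, had 2.71 and 3.99 RPKM in Six2-labelled cells, against 5.12 and 4.91 RPKM in control cells. Six2-labelled replicate 2 was the nearer of its group to the controls. The log2 difference of Abcc4 was -0.48 (SE 0.180, limma-trend adjusted p = 0.293), and its 95% interval, -0.96 to 0.0003, reached 0. Without Six2 replicate 1 it was -0.27. Abcc5 (ENSMUSG00000022822.16, chromosome 16, 20331303 to 20426394, minus strand), which also carries cyclic nucleotides, had 4.40 and 3.60 RPKM in Six2-labelled cells, against 6.47 and 5.50 RPKM in control cells. All libraries of Abcc5 lay apart by group, and its log2 difference was -0.48 (SE 0.146, 95% interval -0.88 to -0.09, limma-trend adjusted p = 0.230).

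The other multidrug resistance genes were scarce or not detected. Abcc3 (ENSMUSG00000020865.16, chromosome 11, 94343295 to 94392997, minus strand), which exports glucuronides and bile salts, had 0.108 and 0.1104 RPKM in Six2-labelled cells, against 0.255 and 0.277 RPKM in control cells. These are 27 and 45 reads in Six2-labelled cells and 55 and 58 reads in control cells, a 2.43-fold lower mean RPKM. The exact Poisson 95% intervals reached up to 0.157 and 0.148 RPKM in Six2-labelled cells and down to 0.192 and 0.210 RPKM in control cells, so they did not touch. Abcc3 lay under the filter. In the fit of all genes with any read it differed by -0.19 on the log2(RPKM + 1) scale (SE 0.0196, limma-trend adjusted p = 0.130). That fit called 0 of its 16679 genes, so not passing there is no result about Abcc3. With a filter of 10 reads in at least 2 libraries its SE was 0.0582 and its limma-trend adjusted p 0.239. Abcc2 (ENSMUSG00000025194.5, chromosome 19, 43782192 to 43840740, plus strand), the apical exporter of conjugates in liver, had 0 reads in all 4 libraries. On its longest GENCODE transcript of 8027 bases, a floor of 3 reads would be 0.00749 and 0.00458 RPKM in Six2-labelled cells. In control cells it would be 0.00867 and 0.00892 RPKM. The exact Poisson 95% intervals for 0 reads reached higher, up to 0.00921 and 0.00564 RPKM in Six2-labelled cells. In control cells these intervals reached 0.0107 and 0.0110 RPKM.

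The cholesterol exporter Abca1 (ENSMUSG00000015243.4, chromosome 4, 53030787 to 53159895, minus strand) went the other way. Abca1 had 2.88 and 1.66 RPKM in Six2-labelled cells, against 1.31 and 0.940 RPKM in control cells. Both Six2-labelled values lay above both control values, and replicate 1 was the higher library in each group. The mean was 2.27 ± 0.864 RPKM in Six2-labelled cells and 1.12 ± 0.261 RPKM in control cells (SD, n = 2 each), a ratio of 2.02. The log2 difference of 0.60 (SE 0.235, 95% interval -0.03 to 1.23) did not pass (limma-trend adjusted p = 0.312). It was 0.33 without Six2 replicate 1, 0.92 with a pseudocount of 0.1 and 0.93 with voom. Abcg1 (ENSMUSG00000024030.7, chromosome 17, 31057675 to 31117988, plus strand), which passes cholesterol to high-density lipoprotein, had 9 and 0 reads in Six2-labelled cells and 9 and 2 reads in control cells. That is at most 0.0359 RPKM, and the groups overlapped.

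Summed over the 10 genes, the Six2-labelled libraries held 30.2 and 38.4 RPKM and the control libraries 43.2 and 47.7 RPKM. The sums did not overlap (exact two-sided permutation p of 0.333, the smallest possible). Abcc1 made up 37.7% and 38.3% of the sum in Six2-labelled cells, against 44.5% and 45.5% in control cells. Abcb1b made up 24.6% and 33.3% in Six2-labelled cells, against 17.3% and 22.6% in control cells. Abcg2 held 1.09% and 1.13% of the sum in Six2-labelled cells and 3.62% and 2.61% in control cells, and Abca1 held 9.54% and 4.32% in Six2-labelled cells and 3.03% and 1.97% in control cells. All of these shares were apart by group. The ratio of Abcc1 to Abcc4 was not, at 4.20 and 3.68 in Six2-labelled cells and 3.75 and 4.43 in control cells.

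**Figure D3:**
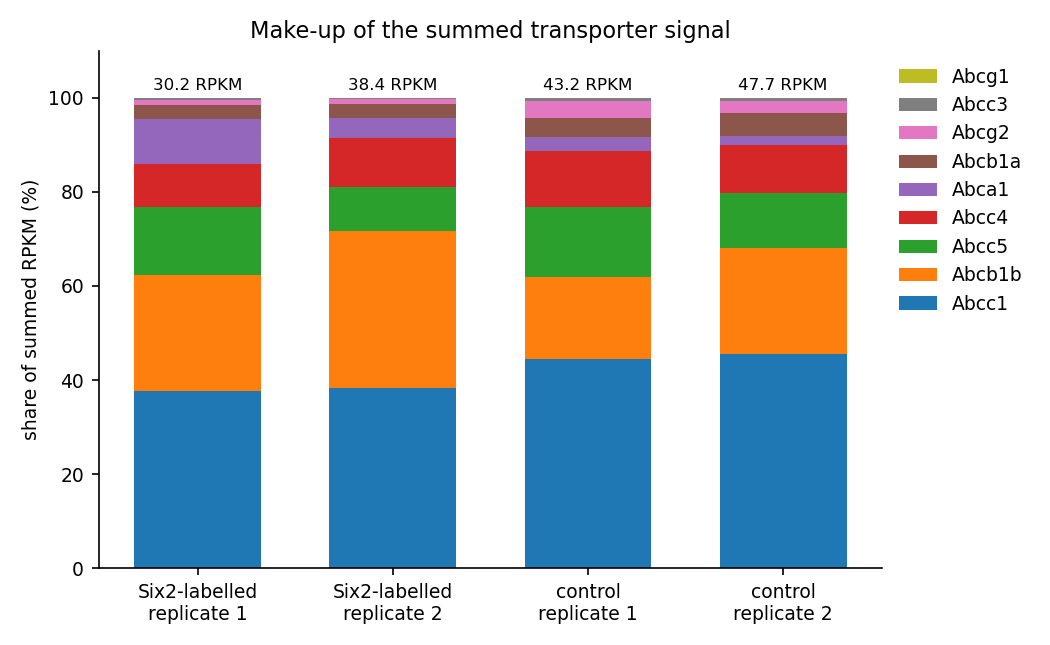
Share of each transporter in the summed RPKM of the 10 genes, in percent, as stacked bars for each library, with the Six2-labelled libraries left of the control libraries and the summed RPKM above each bar. Abcc1 makes up 37.7% and 38.3% in Six2-labelled cells and 44.5% and 45.5% in control cells, and Abcc2 adds nothing.

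Genes near Abcc1 and Abcc5 also lay lower in Six2-labelled cells. Abcc1 and Abcc5 both lie on chromosome 16, whose 331 tested genes had a median log2 difference of -0.21, and with chromosome medians removed Abcc1 differed by -0.41 and Abcc5 by -0.27. Their unadjusted limma-trend p-values then rose from 0.0145 to 0.0553 for Abcc1 and from 0.0259 to 0.127 for Abcc5. Those of Abcc4 (lower) and Abca1 (higher) fell under 0.05 with the medians removed, to 0.0379 and 0.0438. Of the tested protein-coding genes within 500 kb, 5 of 5 around Abcc1 (median log2 difference -0.40) and 13 of 13 around Abcc5 (median -0.35) lay below 0, with 5 and 11 of them apart by group. Among all 10654 genes tested, 5554 lay below 0 and 25.5% were apart and lower. The 3 tested neighbours of Abcc4 had a median of -0.03, with 0 apart and lower. The neighbours of Abcc5 included the translation factor gene Eif2b5 (-0.44) and the proteasome gene Psmd2 (-0.35). Around Abca1 both tested neighbours were lower, by a median of -0.38, opposite in sign to Abca1. Around Abcg2 the 2 tested neighbours, Herc3 (-0.08) and Fam13a (-0.26), overlapped between groups. Around Abcb1a and Abcb1b, the 5 tested neighbours had a median of 0.07, with Crot, a peroxisomal carnitine transferase gene, at -0.43. The part of chromosome position in the transporter differences was not tested.

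**Figure D4:**
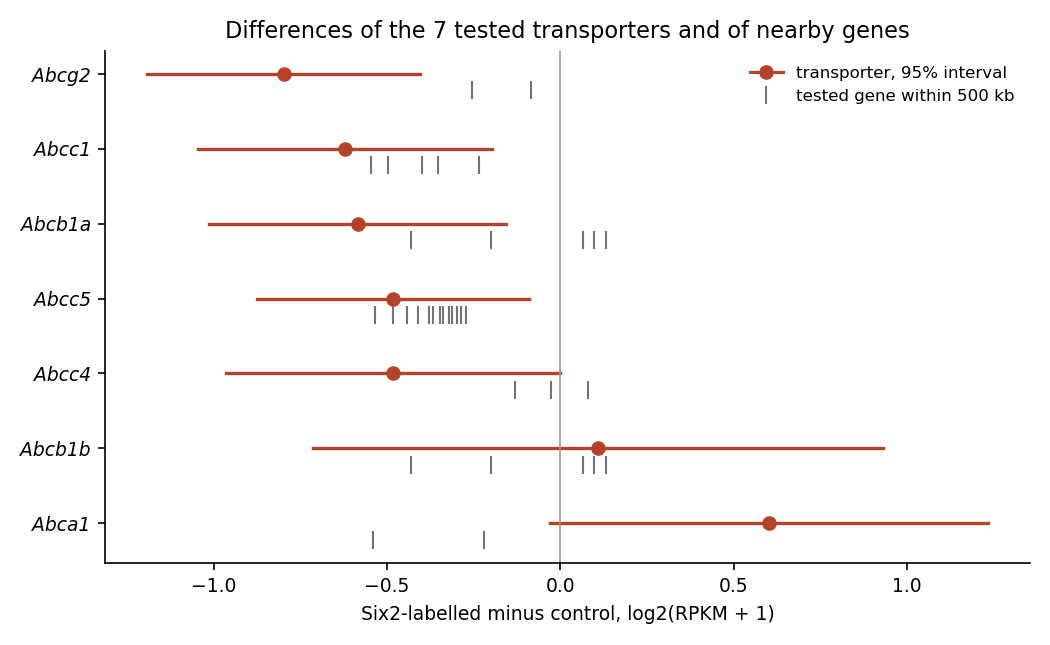
Difference of the 7 tested transporters, Six2-labelled minus control, on the log2(RPKM + 1) scale (red points with 95% intervals from limma-trend), above ticks for the tested protein-coding genes within 500 kb of each. The intervals of Abcg2, Abcc1, Abcb1a and Abcc5 lie below 0, and the neighbours of Abcc1 and Abcc5 all lie below 0 too.

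Other genes of the ABC superfamily were split between the directions. Of 43 others listed, 19 were tested and 0 passed with limma-trend (3 higher and 2 lower at an unadjusted p under 0.05). Over all genes tested 0.113% were called, and 7.36% were higher and 9.66% lower at the unadjusted threshold. The median log2 difference of the 19 was 0.06, with 11 above 0 and 8 below. The largest differences among them belonged to the peptide transporter genes of antigen presentation. Tap2 had 6.31 and 4.68 RPKM in Six2-labelled cells, against 2.65 and 2.25 RPKM in control cells (log2 difference 0.90, SE 0.172, limma-trend adjusted p = 0.144). Tap1 had 1.73 and 1.48 RPKM in Six2-labelled cells, against 0.731 and 0.712 RPKM in control cells (log2 difference 0.59, limma-trend adjusted p = 0.168). Tap1 reached 1 RPKM only in the Six2-labelled libraries, so that a higher value was built into its being tested. It is counted among the 3 higher and the 11 above 0. The most abundant were Abcf2 (83.1 ± 14.3 RPKM in Six2-labelled and 79.4 ± 15.6 RPKM in control cells) and Abcf1 (62.2 ± 6.43 RPKM in Six2-labelled and 70.3 ± 9.29 RPKM in control cells; SD, n = 2 each), whose proteins lack membrane domains. Abcb4, the phospholipid transporter gene beside Abcb1a and Abcb1b, had 0 reads in all 4 libraries.

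**Figure D5:**
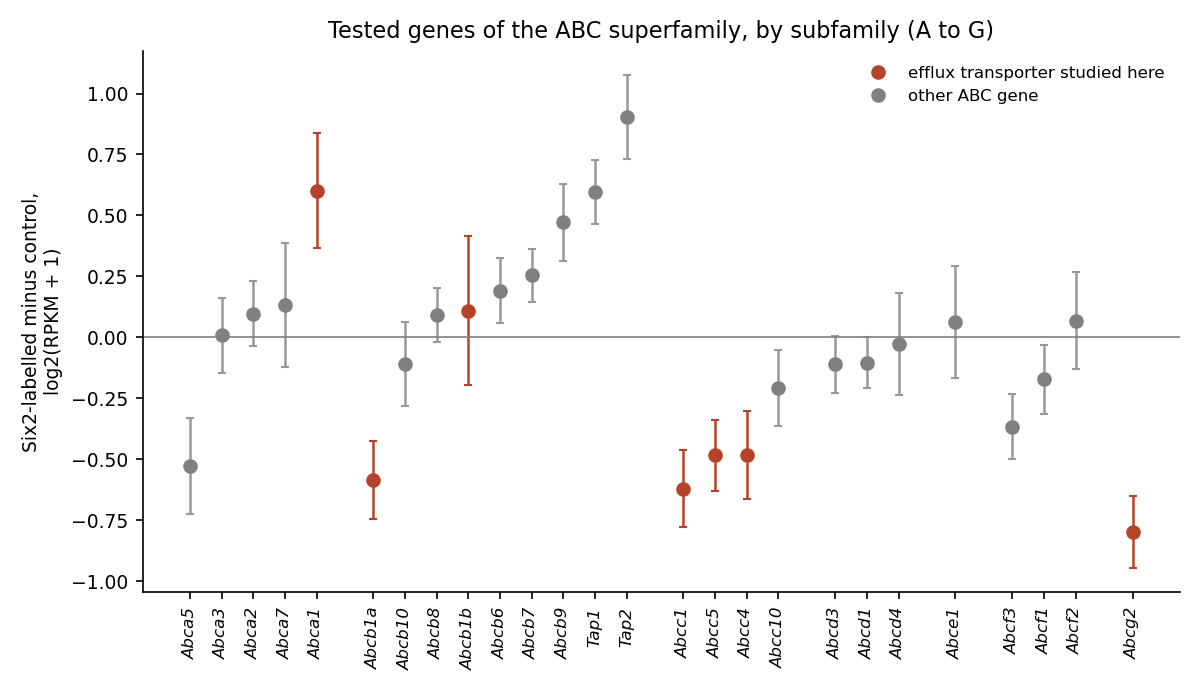
Difference of each tested ABC gene, Six2-labelled minus control, on the log2(RPKM + 1) scale, grouped by subfamily A to G, with SE bars from limma-trend. The transporters examined here are red and the 19 other ABC genes grey; Tap2 is highest at 0.90 and Abcg2 lowest at -0.80.

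Of the genes that act with these pumps, 0 passed in either list, where 0.113% of all genes tested were called. Of 29 genes of glutathione synthesis and conjugation, which make substrates for the Abcc proteins, 20 were tested and 0 passed with limma-trend (1 higher and 2 lower at an unadjusted p under 0.05, median log2 difference -0.18). The groups were apart and lower for 5 of these 20, where 25.5% of all genes tested were so, and the list is therefore near the background. Gstk1 had 3.88 and 3.32 RPKM in Six2-labelled cells, against 10.3 and 8.78 RPKM in control cells (log2 difference -1.19, SE 0.136). The abundant Gstp1 had 85.4 and 84.1 RPKM in Six2-labelled cells, against 105 and 109 RPKM in control cells (-0.33). Mgst2 had 97.1 and 88.8 RPKM in Six2-labelled cells, against 69.8 and 56.8 RPKM in control cells (0.55), and Mgst1 overlapped between groups. Of 13 genes that link or place the pumps in the membrane, 12 were tested and 0 passed with limma-trend (0 higher and 6 lower at an unadjusted p under 0.05, against 9.66% lower among all genes tested, median -0.35). Groups were apart and lower for 7 of these 12 and higher for 0, against 25.5% and 21.9% of all genes tested. The ERM proteins ezrin and moesin tie P-glycoprotein to actin. Msn had 145 and 146 RPKM in Six2-labelled cells, against 183 and 191 RPKM in control cells (-0.36), and Ezr had 122 and 105 RPKM in Six2-labelled cells, against 168 and 142 RPKM in control cells (-0.44). The caveolin gene Cav1 differed by -1.09 and the flotillin gene Flot1 by -0.75.

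Other sterol-responsive genes lay on both sides of 0. Over all genes tested 0.113% were called, and at an unadjusted p under 0.05 7.36% were higher and 9.66% lower. Of 15 listed liver X receptor targets other than Abca1 and Abcg1, 11 were tested and 0 passed with limma-trend (0 higher and 2 lower at an unadjusted p under 0.05, median log2 difference -0.04). Groups were apart and lower for 2 of these 11 and higher for 0, against 25.5% and 21.9% of all genes tested. The fatty acid desaturase gene Scd1 had 26.9 and 22.3 RPKM in Six2-labelled cells, against 56.3 and 39.0 RPKM in control cells (-0.91, SE 0.216, limma-trend adjusted p = 0.176). Scd2 differed by -0.50, Lbp by -0.87 and Plin2 by 0.20, each with overlapping groups. Of 21 xenobiotic and sterol regulators, 14 were tested and 0 passed with limma-trend (0 higher and 2 lower at an unadjusted p under 0.05, median -0.03). Groups were apart and lower for 6 of these 14 and higher for 4. Srebf1, which drives fatty acid synthesis and is itself a receptor target, had 19.3 RPKM in both Six2-labelled libraries, against 31.7 and 25.3 RPKM in control cells (-0.53). Nfe2l2, which encodes the NRF2 activator of several Abcc genes, was at 91.6 ± 5.83 RPKM in Six2-labelled cells and 83.2 ± 0.145 RPKM in control cells (SD, n = 2 each), a difference of 0.14, and Hif1a differed by 0.46.

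Among markers of other cell types in which these pumps are prominent, Cd14, Cd68, Flt1, Egfl7 and Pdgfra were expressed, and several defining markers were at or near 0. Of 12 macrophage and leukocyte markers, 2 were tested, Cd14 (log2 difference -0.88) and Cd68 (-0.44). Their summed level over the list was 27.8 to 51.5 RPKM in Six2-labelled cells and 46.7 to 97.7 RPKM in control cells, nearly all of it Cd14 and Cd68. Adgre1 was at 0 in all 4 libraries, and Ptprc did not exceed 0.00433 RPKM. Of 10 endothelial markers, 2 were tested, Flt1 (0.37) and Egfl7 (0.10), with a summed level of 13.8 to 14.7 RPKM in Six2-labelled cells and 11.3 to 13.2 RPKM in control cells. Kdr was at 0 in all 4 libraries and Pecam1 and Cdh5 stayed at or under 0.0905 RPKM. Of 10 fibroblast markers, 1 was tested, Pdgfra (-0.16), with a summed level of 5.19 to 7.45 RPKM in Six2-labelled cells and 5.28 to 9.95 RPKM in control cells. The list of 11 mammary epithelial markers summed to 998 to 1665 RPKM in Six2-labelled cells and 1239 to 1897 RPKM in control cells. Nearly all of that sum was Krt8 and Krt18. Of the 5 tested genes of the list, 3 passed the filter only through the control libraries, so lower values were built into their being tested. All 5 lay below 0 (median log2 difference -2.14), where 5554 of all 10654 genes tested did. At an unadjusted p under 0.05, 3 of the 5 were lower and 0 higher, where 9.66% of all genes tested were lower. With limma-trend 1 of the 5 was called, where 0.113% of all genes tested were called. It was Krt7, itself 1 of the 3 that passed only through the control libraries (0.467 and 0.634 RPKM in Six2-labelled cells, against 10.8 and 8.67 RPKM in control cells, limma-trend adjusted p = 0.0397). Krt7 was not called with no filter or with voom, but each of these called 0 of all genes, so that is no result about Krt7. The part of epithelial state in the transporter differences was not tested.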

How the data were processed

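Per the labels' protocols, polyadenylated RNA of 4T07 cells was made into libraries with a stranded TruSeq kit. The builds GRCm38 and mm10 stand in the submitters' processing notes beside HTSeq 0.8.0, Picard 2.9.4, SAMtools 1.5, TopHat2 2.1.1, Bowtie2, FastQC 0.11.5 and bcl2fastq 1.8.4. Gene models and strand setting were not given in the sources used here. The authors deposited RPKM values, named in the file, for 24421 genes with 1 column per library. A count test could not be the main test on them, so limma 3.58.1 in R 4.3.3 fitted log2(RPKM + 1) on group with a trend, two-sided, for the 10654 genes reaching 1 RPKM in 2 or more libraries, with Benjamini-Hochberg adjustment over all of them and a threshold of 0.05.

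Read totals and reads were recovered from the RPKM steps. Whole reads, within 0.001 reads, came out for 14457 of the 14459 genes that exceeded 0 in at least 3 libraries. Reads of a gene whose counts share a factor would be understated. The procedures were tested on simulated data. Intervals and floors of 3 reads cover counting error only. Symbols were placed with GENCODE annotation of GRCm38, whose gene models may differ from the authors'.

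The members and gene lists were chosen with earlier results of these data known. All 10 transporters are named. From each other list the rule took called genes or, with none called, the 2 most abundant tested genes and the 2 of largest difference, of which 1 gene is not reported here; other names, among them the neighbouring genes and markers, were chosen after their values were seen. Alternatives covered the pseudocount, the filter, relative log expression factors, voom, chromosome medians, a replicate block and each library left out.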

Additional observations from a re-analysis of the deposited data

How the results depend on the processing

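With 2 libraries a group, only large and even differences can pass, and Abcg2, Abcc3 and Abcg1 rest on few reads. Of the 10654 genes, 12 were called; 0 were called with no filter (smallest limma-trend adjusted p = 0.0519) and 0 with voom on recovered reads (0.0665), and leaving out 1 library gave 11 to 68 calls (35 without Six2 replicate 1, 68 without Six2 replicate 2, 11 without CTL replicate 1, 31 without CTL replicate 2). The cause was not tested. A lone library was assumed to vary like the other group. The number of transporters called was 0 under every alternative but the replicate block, including each library left out (0 to 0). With the replicate number as a block, 6 of the 7 tested transporters were called, all but Abcb1b, but so were 4639 genes in all, 43.5% of those tested. The labels do not say that a number pairs the libraries, though replicate differences of the groups correlated at 0.818 across genes, which are not independent replicates. Of 77 values of single transporters under the alternatives, 69 kept both sign and side of the threshold, 6 were called with the block, and 2 turned, both of Abcb1b (range -0.25 to 0.47 with 1 library left out, -0.25 without Six2 replicate 2, -0.13 without CTL replicate 1). Outside the block, the log2 difference ranged from -1.85 to -0.70 for Abcg2 (adjusted p 0.103 to 0.496), from -0.97 to -0.44 for Abcb1a, from -0.79 to -0.41 for Abcc1, from -0.70 to -0.27 for Abcc4, from -0.60 to -0.27 for Abcc5 and from 0.33 to 0.93 for Abca1.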

Other observations

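Drug-metabolising enzymes and uptake carriers, which set how much drug reaches the efflux pumps, were read from the same fit. Of 22 oxidising and conjugating enzymes, 8 were tested, all 8 lay below 0 (median log2 difference -0.31), and 0 passed with limma-trend (0 higher and 3 lower at an unadjusted p under 0.05). Among all 10654 genes tested, 5554 lay below 0 and 0.113% were called. At the same unadjusted threshold 7.36% of them were higher and 9.66% lower. Groups were apart and lower for 6 of the 8 enzymes and higher for 0, against 25.5% and 21.9% of all genes tested. Cyp1b1, a cytochrome that oxidises estrogens and aryl hydrocarbons, had 4.46 and 2.59 RPKM in Six2-labelled cells, against 16.2 and 9.28 RPKM in control cells (-1.59, SE 0.340, limma-trend adjusted p = 0.162). Aldh3a1, an aldehyde dehydrogenase gene, had 2.39 and 1.82 RPKM in Six2-labelled cells, against 9.60 and 6.51 RPKM in control cells (-1.53, SE 0.218, limma-trend adjusted p = 0.105). The abundant Aldh2 differed by -0.23, with 75.9 and 68.2 RPKM in Six2-labelled cells and 93.3 and 76.5 RPKM in control cells.

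Of 19 uptake carriers, 8 were tested and 0 passed with limma-trend (0 higher and 1 lower at an unadjusted p under 0.05), with a median log2 difference of 0.02. Shares over all genes tested were 0.113% called, and 7.36% higher and 9.66% lower at the unadjusted threshold. Groups were apart and lower for 1 of the 8 carriers and higher for 0, against 25.5% and 21.9% of all genes tested. The prostaglandin carrier gene Slco2a1 had 195 and 192 RPKM in Six2-labelled cells, against 195 and 180 RPKM in control cells. The nucleoside carrier gene Slc29a1, through which nucleoside drugs enter cells, was at 134 ± 17.2 RPKM in Six2-labelled cells and 148 ± 19.8 RPKM in control cells (SD, n = 2 each). Slc22a4, a carrier of organic cations, differed by -0.37, and the folate carrier gene Slc19a1 by 0.31 with overlapping groups.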
